A study of Mus musculus with 8 samples.

Results

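Of the 9479 protein coding genes with at least 1 strong alternative polyadenylation site (APS) in mouse gastrocnemius muscle, 2107 had exactly 2, and these genes and their 4214 APSs are described here. An APS was called strong when it lay on the strand of its gene and held at least 50 reads summed over the 8 libraries, so the members were selected on measured read counts. Another 4987 genes had 1 strong APS and 2385 had 3 or more. Of the 2 APSs of a gene, the one nearer to its start is called proximal and the other distal, and the distal share is the percentage of the reads at both APSs that fell on the distal one. The RNA was read by WTTS-seq (whole transcriptome termini site sequencing), which sequences the 3′ ends of polyadenylated transcripts and counts reads per APS. Groups were AMPKα1 knockout (KO) mice of about 6 weeks, AMPKα2 KO mice of about 8 weeks, and a wild-type (WT) group for each model whose age is not given, with 2 male mice per group and 1 library per mouse. The labels give adult stage and a C57BL/6 background for these mice, whereas the study's methods name the strain 129S2/SvPas for the AMPKα1 KO. Both KO lines are homozygous, and their alleles are described as lacking part of the catalytic domain. AMPKα1 and AMPKα2 are the 2 catalytic subunits of the AMP-activated protein kinase, which is switched on when cellular energy falls and in muscle promotes glucose uptake and fatty acid oxidation.

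Most mammalian genes can end their transcripts at more than 1 place. The cleavage and polyadenylation machinery recognises a hexamer, most often AATAAA and less often ATTAAA in the DNA, shortly before the cut, and downstream elements after it. When both ends lie past the stop codon in the same last exon, the choice changes the length of the 3′ untranslated region. That region carries binding sites for microRNAs and RNA-binding proteins. When the proximal end lies in an intron or an internal exon, the shorter transcript also loses coding sequence. A genomic stretch of As can be primed by oligo(dT) as a poly(A) tail is, so an internal site in 3′-end data need not be a transcript end.

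The 30 bases that end at each APS are shown for 8 genes, with AATAAA and ATTAAA in capitals, to show how the 2 ends of a gene differ before their reads are compared. The first 3 genes are from the AMPKα2 comparison, the next 3 from the AMPKα1 comparison, and Casq2 and Psmd8 show pairs with reads at both ends in all libraries. Sequences are those of the GENCODE M21 transcripts on GRCm38, read 5′ to 3′ on the strand of the gene.
E2f6 proximal, chr12:16811212-16811241, + strand: gtcagcagcggacggcgcggagacagccca
E2f6 distal, chr12:16826718-16826747, + strand: aagtagagattcaaaATTAAAgtATTAAAa
Psmc4 proximal, chr7:28041823-28041852, - strand: gaccgtgatcaagaaagatgaacaggaaca
Psmc4 distal, chr7:28041716-28041745, - strand: tggtttagtcAATAAAtggacgtgattgga
Atp5d proximal, chr10:80145563-80145592, + strand: acacccacggggaaactgagccaggtccag
Atp5d distal, chr10:80145786-80145815, + strand: cctgtctccATTAAAcaccaggaaccaact
Asb4 proximal, chr6:5432171-5432200, + strand: ttttaacagtggctcccttcagttggaaaa
Asb4 distal, chr6:5432990-5433019, + strand: tttAATAAAacttcAATAAAgatcataaat
Prdx2 proximal, chr8:84974289-84974318, + strand: aaaccAATAAAgtattagggacagtgtaag
Prdx2 distal, chr8:84974635-84974664, + strand: catagacatgaAATAAAtacttctgtaaaa
Slc38a4 proximal, chr15:96996769-96996798, - strand: tgcATTAAAaattctgtggcacacatttta
Slc38a4 distal, chr15:96994822-96994851, - strand: tggtatatAATAAAtaaacttttcaaatga
Casq2 proximal, chr3:102146279-102146308, + strand: gttcacgatgccctgaggcaccaaggaaaa
Casq2 distal, chr3:102146473-102146502, + strand: aatagtAATAAActaatggacattagactc
Psmd8 proximal, chr7:29174530-29174559, - strand: tggccttcAATAAAggcagattaacctcta
Psmd8 distal, chr7:29174254-29174283, - strand: tggccgtggATTAAAtaatttttaaaatga

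The same search over the members with these bases in an annotated transcript found AATAAA before 302 of 1191 proximal APSs (25.4%) and before 787 of 1382 distal APSs (56.9%). ATTAAA lay before 11.8% of proximal and 17.3% of distal APSs. Over strong APSs of protein coding genes of any number per gene the share with AATAAA was 37.8% of 12177. Proximal APSs in an internal exon had it least often, in 8 of 238 (3.36%), and those in the last exon shared with the distal APS in 269 of 887 (30.3%). A stretch rich in A (7 As in a row, or 8 in 10 bases) within the 30 bases after the APS was found for 27.6% of 1081 proximal and 19.7% of 610 distal APSs, and for 33.5% of the proximal APSs in internal exons. These bases were read only where at least 30 bases of the exon followed the APS. Intronic APSs and many distal ones at annotated ends are thus left out, and the proximal and distal sets are not alike. In the pairs above, the distal end carries a hexamer in each gene and the proximal end in Prdx2, Slc38a4 and Psmd8 only. Other named pairs differ, and Klf2 and Tpd52l2, for example, have neither hexamer in the 30 bases before either end.

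Between 2311242 and 3549156 reads were counted per library. The members' APSs took 11.9 to 12.8% of them in the AMPKα1 model and 2.64 to 3.92% in the AMPKα2 model. Neither targeted gene is a member. Prkaa1 had 1 APS on its strand, read 0 and 82 times in AMPKα1 KO but 15 and 0 times in its WT libraries. Prkaa2, with 7 APSs, was read 40 and 71 times in AMPKα2 KO but 87 and 62 times in its WT libraries. A 3′ end lies outside the deleted part of the gene, so these counts do not check the labels. The muscle fibre markers, 10 of 10 in the table, summed to 100437 to 166271 CPM (reads scaled to the library total) in AMPKα1 libraries and 55917 to 68945 in AMPKα2 libraries. Adipocyte markers (7 of 8 listed, not Lep) summed to 7152 to 12033 and 1616 to 2430 CPM, and fibroblast markers (6 of 6) to 9703 to 16033 and 1629 to 2258 CPM. The models thus stand apart in these lists as well as in age. Of 9 marker lists, 3 also did not overlap between KO and WT in AMPKα1 and 2 in AMPKα2. With 2 libraries against 2, a share of 0.333 of the possible orders leaves no overlap. These counts do not exceed that share, so the lists named next are descriptions. Slow fibre markers (6 of 6, of which Tnni1, Tnnc1 and Myl3 are members) were higher in KO in both models, with 5242 and 2461 CPM in AMPKα1 KO against 1590 and 1584 in WT, and 1368 and 2224 in AMPKα2 KO against 661 and 1210 in WT. In AMPKα1, smooth muscle markers (5 of 5) were higher in KO (299 and 323 CPM against 97.8 and 207) and the muscle fibre markers lower (108492 and 100437 against 166271 and 124603), and in AMPKα2 fibroblast markers were higher in KO (2258 and 2089 against 1629 and 1839). The part of these markers in the KO and WT shares was not tested. In bulk muscle fewer cells of a type and less RNA per cell cannot be told apart.

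By position, the pairs fell into a few kinds, set without regard to the stop codon. An internal exon here means any annotated exon other than the last exon of a protein coding transcript, so first exons count as well. Of 2047 genes matched to GENCODE M21 by symbol, chromosome and strand, 887 (43.3%) had both APSs in the same last exon or its downstream flank, with a median of 706 bases between them. In 810 (39.6%) the proximal APS lay in an intron, at a median of 20822 bases from the distal one, and in 239 (11.7%) in an internal exon, at a median of 7996 bases. In 94 genes (4.59%) the proximal APS lay in another last exon, and 17 were of other kinds. Over the 2107 genes the distance had a median of 3337 bases, with quartiles of 765 and 17978 bases. The distal APS lay within 24 bases of an annotated transcript end in 71.7% of the matched genes and the proximal APS in 21.5%.

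**Figure D1:**
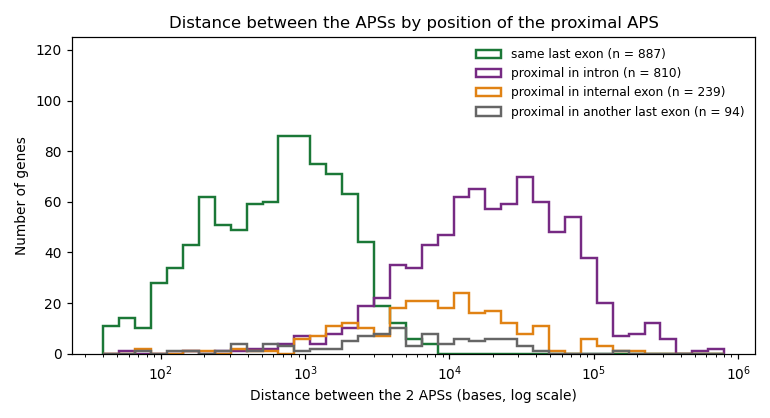
Number of genes (y axis) by distance between their 2 APSs in bases (x axis, log scale), with 1 line for each position of the proximal APS. Pairs in the same last exon centre near their median of 706 bases and pairs with an intronic proximal APS near 20822 bases.

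The shortest distance, 41 bases, was shared by Capns1 (the small regulatory subunit of calpain), Myd88 (an adaptor of Toll-like receptors) and Brf1 (a subunit of the RNA polymerase III factor TFIIIB), each in 1 last exon or, for the distal APS of Brf1, just beyond it. Capns1 had a distal share of 91.5%, 92.3%, 67.2% and 90.5% in AMPKα1 KO 1, KO 2, WT 1 and WT 2, and of 36.0%, 28.6%, 46.9% and 40.6% in the same order in AMPKα2. In this gene the distal end was the stronger in AMPKα1 libraries and the weaker in AMPKα2 libraries. The longest distance was 706772 bases in Adamtsl1, a secreted matrix protein, with both APSs in introns. Adamtsl1 held 0 to 8 reads at both APSs together in each AMPKα2 library, too few for a share to be compared.

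The threshold cut through genes that differed little. In 65 members the weaker APS had exactly 50 reads, among them 2310036O22Rik with 286 and 50 reads at its 2 APSs and AI987944 with 142 and 50. Another 63 genes had a strong APS and a next one at 49 reads, such as 1110038F14Rik with 585 and 49 and 3110082I17Rik with 195 and 49. Because reads were summed over 8 libraries, an APS could also qualify through a single library. More than 50% of the reads came from 1 library at 953 of 2107 proximal APSs (45.2%) and at 609 distal APSs (28.9%). Intronic proximal APSs stood out in this, with 538 of 810 (66.4%), and only 82 of them (10.1%) had a read in each of the 8 libraries. AMPKα1 libraries supplied 74.6% of the reads at proximal and 82.3% of those at distal APSs. Both APSs reached 50 reads within the AMPKα1 libraries in 1422 genes, within the AMPKα2 libraries in 264 and within both in 118. In the AMPKα2 libraries 112 proximal APSs had no read, 90 of them intronic, and 40 distal APSs had none. In the AMPKα1 libraries 126 proximal APSs had no read, 46 in introns and 46 in internal exons, and 16 distal APSs had none. A KO and WT comparison within a model is therefore partly made on members that were selected through the libraries compared. Values over members whose 2 APSs both reached 50 reads in the other model alone, called selected through the other model, are given beside it.

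The distal share agreed between replicate mice in the AMPKα2 model far more than in the AMPKα1 model. Over members with at least 10 reads in both libraries, the replicates of AMPKα1 differed by a median of 22.3 percentage points in KO (1643 genes) and 13.1 in WT (1748), and those of AMPKα2 by 5.88 in both KO (990) and WT (1244). The replicates lay more than 50 points apart in 441 genes (26.8%) of AMPKα1 KO and 209 (12%) of AMPKα1 WT, against 4 and 2 genes in AMPKα2. Spearman's rho across these genes, which are not independent replicates and share the depth of their libraries, was 0.27, 0.59, 0.91 and 0.92 in the same order. Among members with at least 100 reads in both libraries the median difference was 9.70 and 5.35 points in AMPKα1 KO and WT and 2 and 1.80 points in AMPKα2 KO and WT. Pairs with an intronic proximal APS differed most in AMPKα1 KO, by 34.9 points (rho -0.017, 597 genes), yet least in AMPKα2 KO, by 2.84 points (rho 0.81, 257 genes). Genes with 3 or more strong APSs, whose share is of the most distal one, showed the same order of groups, with medians of 13.9, 11.5, 5.10 and 4.82 points.

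**Figure D2:**
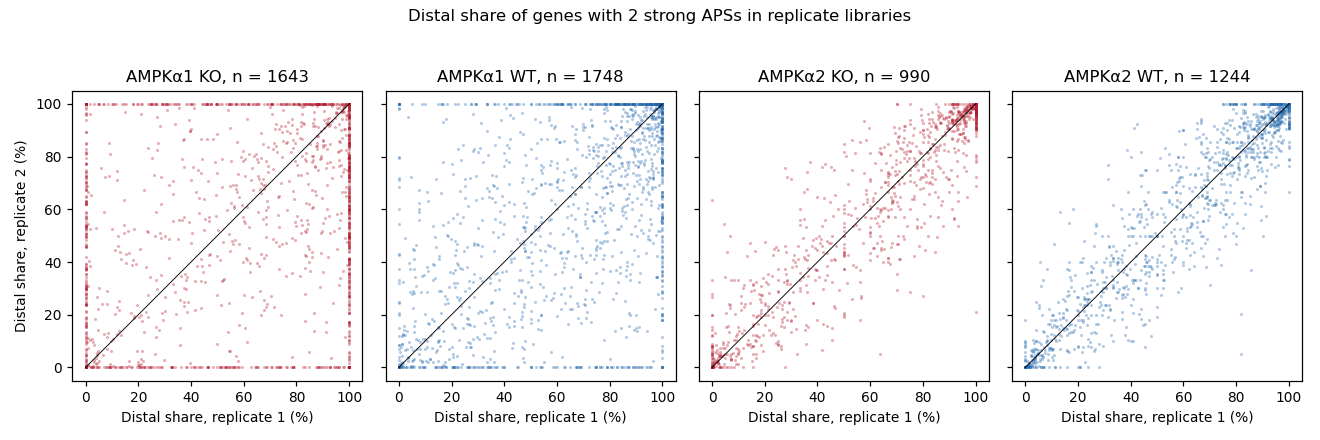
Distal share in replicate 1 (x axis, %) against replicate 2 (y axis, %) for members with at least 10 reads in both libraries, 1 point per gene and 1 panel per group, with the line of equality. AMPKα2 points follow the line, whereas AMPKα1 points also lie along the edges at 0 and 100%.

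The edges of the AMPKα1 panels hold genes whose weaker APS had no read in a library. Of members with at least 100 reads in a library, the weaker APS was at 0 reads in 33.8% and 27.2% in AMPKα1 KO 1 and KO 2 and in 22.6% and 27.3% in AMPKα1 WT 1 and WT 2. In AMPKα2 it was at 0 in 5.95 to 7.74%. Counts of 1 to 5 reads at the weaker APS went the other way, with 3.57 to 3.89% in AMPKα1 KO 1, KO 2 and WT 2, 16.6% in AMPKα1 WT 1, and 16.8 to 30.4% in AMPKα2. Over the whole table AMPKα1 KO 1, KO 2 and WT 2 likewise had 4336 to 4932 APSs at 1 to 5 reads and the other 5 libraries 11382 to 22235. What set these counts was not tested.

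**Figure D3:**
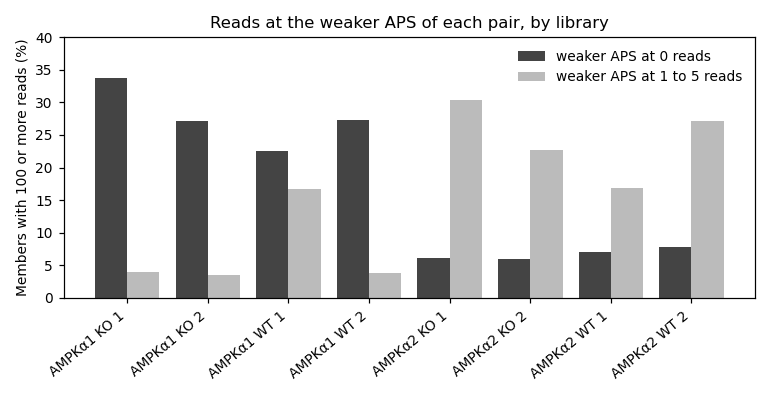
Percentage of members with at least 100 reads in a library (y axis) whose weaker APS had 0 reads (dark bars) or 1 to 5 reads (light bars), for each of the 8 libraries (x axis). Dark bars exceed light ones in the 4 AMPKα1 libraries and the reverse holds in the 4 AMPKα2 libraries.

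Over members as a whole the median distal share overlapped between KO and WT. In AMPKα1 the median over 1437 members with at least 10 reads in each of the 4 libraries was 79.9% and 69.3% in KO and 81.2% and 75.5% in WT. The group means were 74.6% ± 7.52 and 78.4% ± 4.10 (SD, n = 2), a difference of -3.73 points (two-sided exact permutation test, p = 0.667). In AMPKα2 the median over 942 members was 69.4% and 67.8% in KO and 69.2% in both WT libraries, a difference of -0.62 points (two-sided exact permutation test, p = 1). With 2 mice against 2 this test cannot give a p below 0.333. Which members were counted decided whether the groups overlapped. In AMPKα2 both KO medians lay below both WT medians over the 789 members with 10 reads in all 8 libraries (71.4% and 70.8% against 74.1% and 75%, -3.41 points), and also with the strong APS set at 30 reads (-3.36 points) or 100 reads (-2.04 points). In AMPKα1 the same held over 1065 members with 50 reads at both APSs in that model (68.4% and 60.2% against 76.3% and 69.0%, -8.35 points). In each of these the two-sided exact permutation test gave p = 0.333. Over members that reached 50 reads at both APSs in the libraries of the other model, so that the reads compared did not select them, the difference turned to 3.27 points in AMPKα1 (229 members) and 1.04 points in AMPKα2 (575 members), with overlap in both (two-sided exact permutation test, p = 0.667 and 1).

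By position of the proximal APS, the groups overlapped in most kinds. Pairs in the same last exon had medians of 63.6% and 57.6% in AMPKα1 KO and 57.8% and 55.6% in WT (670 genes), and of 57.4%, 53.8%, 56.3% and 56.0% in the same order in AMPKα2 (468 genes). Pairs with an intronic proximal APS had 87.4% and 72.4% in AMPKα1 KO against 91.7% and 90.7% in WT (481 genes), a difference of -11.3 points with both KO libraries below both WT libraries and the 2 KO libraries far apart. Many of these proximal APSs entered through 1 library, as given above, so the gap is a description of members selected partly through these libraries. The same kind stood at 95.2% and 93.8% in AMPKα2 KO and 93.3% and 94.2% in WT (238 genes). Pairs with the proximal APS in an internal exon had 67.3% and 68.4% in AMPKα2 KO against 71.4% and 73.3% in WT (147 genes), -4.50 points and again without overlap. In AMPKα1 that kind had 99.9% and 90.4% in KO and 95.8% and 94.6% in WT (171 genes). Over members selected through the other model, intronic pairs had a median of 100% in each AMPKα1 library (18 genes). At this ceiling the median cannot show a gap, so these genes do not tell whether the AMPKα1 difference holds. Internal exon pairs had 82.7% and 65.9% in AMPKα2 KO and 72.9% and 73.5% in WT (54 genes), with overlap. Pairs in the same last exon, selected in that way, had 73.4% and 74.5% in AMPKα1 KO and 67.2% and 68.6% in WT (132 genes), 6.11 points without overlap (two-sided exact permutation test, p = 0.333), and overlapped in AMPKα2 (320 genes).

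**Figure D4:**
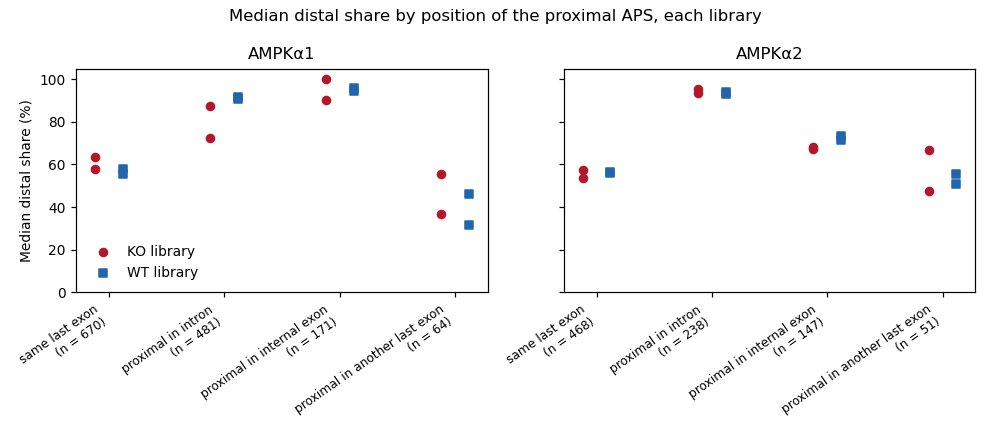
Median distal share (y axis, %) of members with at least 10 reads in each library of the model, by position of the proximal APS (x axis), with 1 point for each KO library (circles) and each WT library (squares). KO and WT are separate for intronic proximal APSs in AMPKα1 and for internal-exon proximal APSs in AMPKα2, in members selected partly through these libraries.

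Among pairs in the same last exon, the level of the distal share went with the signals at the 2 ends. Where AATAAA lay before the distal APS only (255 genes), the library medians ranged from 56.8 to 75%, and where it lay before the proximal APS only (85 genes), from 31.6 to 64.6%. In the 8 libraries taken one by one, the former median was above the latter. These are levels across genes in the same libraries and were not tested.

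Single members were tested with edgeR, on the distal reads against the other reads at strong APSs in each library, over genes with 2 or more strong APSs that had at least 10 reads in each of the 4 libraries and a read on both sides. Of the 2107 members, 1354 could be tested in AMPKα1 and 921 in AMPKα2. In AMPKα2, 4 members passed a Benjamini-Hochberg adjusted p of 0.1, with the distal share lower in KO in E2f6, Nudc and Psmc4 and higher in Cadm2. Over the 2650 genes tested 7 were called (0.264%). In AMPKα1 no member passed, and over the 3520 genes tested 0 were called (0%). With the same threshold DESeq2 called 0 members in AMPKα2 (0.0377% of all genes tested) and 21 in AMPKα1 (1.55%, against 1.53% of all genes tested), and limma and edgeR's diffSpliceDGE called 0 in both. None of the 4 members called was among the 557 that were tested in AMPKα2 and reached 50 reads at both APSs in AMPKα1. Of those 557, 29 (5.21%) had an unadjusted edgeR p below 0.05.

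E2f6, a transcriptional repressor of the E2F family, had 7 of 133 reads (5.26%) and 14 of 92 (15.2%) at the distal APS in AMPKα2 KO 1 and KO 2, and 64 of 161 (39.8%) and 22 of 59 (37.3%) in WT 1 and WT 2. Both KO shares were below both WT shares, and the 95% Wilson intervals of the KO libraries (2.57 to 10.5% and 9.29 to 23.9%) lay below those of the WT libraries (32.5 to 47.5% and 26.1 to 50.05%). Such intervals cover counting error only, since reads copied by PCR are not independent molecules. The mean share was 10.2% ± 7.04 in KO and 38.5% ± 1.74 in WT (SD, n = 2). The odds of a distal read were lower by -2.58 on the log2 scale (SE 0.57, edgeR adjusted p = 0.0202). Its proximal APS lies in an internal exon, 15506 bases from the distal one. In the 4 AMPKα1 libraries no read fell on it, in 103 to 210 reads each.

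Nudc encodes a dynein-associated protein of nuclear movement. Its distal APS held 12 of 40 reads (30%) and 12 of 67 (17.9%) in KO and 71 of 90 (78.9%) and 46 of 90 (51.1%) in WT, with no overlap between the groups (log2 odds -2.66, SE 0.62, edgeR adjusted p = 0.0329). The proximal APS is again in an internal exon, 2976 bases away. Fitted as single APSs, the distal one was lower by -1.94 on the log2 scale (SE 0.44) and the proximal one differed by 0.50 (SE 0.60), and edgeR called neither. Nudc lies on chromosome 4, which also holds Prkaa2. Of the 51 members of this chromosome tested in AMPKα2, 3 (5.88%) had an unadjusted edgeR p below 0.05, against 72 of 870 (8.28%) elsewhere. By calls the order was the reverse, with 1 of the 51, Nudc itself, against 3 of the 870. The part of this location in the share of Nudc was not tested.

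Psmc4, an ATPase of the 19S regulatory particle of the proteasome, had distal shares of 91.8% (45 of 49 reads) and 56.3% (67 of 119) in KO and of 98.1% (101 of 103) and 92.7% (51 of 55) in WT (log2 odds -3.20, SE 0.76, edgeR adjusted p = 0.0353). KO 1 lay just under WT 2, within its Wilson interval of 82.7 to 97.1%, and KO 2 lay far below both WT libraries. The 2 APSs are 107 bases apart in the same last exon, and in AMPKα1 only the distal one was read. Its proximal APS was strong through KO 2 alone, which held 52 of its 62 reads, so Psmc4 is a member only because of the library in which that APS was high, and its call is no independent result.

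Cadm2, an adhesion molecule of the immunoglobulin superfamily known from the nervous system, had distal shares of 98.7% (74 of 75 reads) and 97.9% (184 of 188) in KO and of 66.7% (20 of 30) and 94.3% (33 of 35) in WT (log2 odds 3.52, SE 0.89, edgeR adjusted p = 0.0497). WT 2 was close to the KO libraries, and the Wilson interval of WT 1 ran from 48.8 to 80.8%. Its APSs are 326675 bases apart and both lie in introns, so neither is in an annotated last exon.

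Each of these 4 calls was lost when some single library was left out, a fit in which the lone library of a group is assumed to vary like the 2 of the other group. Without AMPKα2 WT 1 no member was called (edgeR adjusted p = 0.998 for each of the 4), although the log2 odds of E2f6 stayed at -2.49. Those of Nudc, Psmc4 and Cadm2 were then -1.79, -2.26 and 1.67. E2f6 also lost its call without KO 1 (log2 odds -1.81, edgeR adjusted p = 0.325) and so did Cadm2 (3.36, 0.1003). Nudc and Psmc4 lost theirs without KO 2 (-2.14 and -1.10, edgeR adjusted p = 0.133 and 0.788). The members called numbered 5 without KO 1, 23 without KO 2 and 9 without WT 2.

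The members next by p in each direction in AMPKα2, 3 with a lower and 5 with a higher distal share in KO, did not pass (edgeR adjusted p from 0.226 to 0.406). Mknk2, a kinase of the translation factor eIF4E, had distal shares of 71.1% and 69.7% in KO and 90.6% and 94.6% in WT. Slc25a28, the mitochondrial iron carrier mitoferrin 2, had 21.7% and 28.1% in KO and 77.3% and 57.1% in WT, on 14 to 57 reads per library. Atp5d, the delta subunit of ATP synthase, had 95.6% and 98.5% in KO and 99.2% and 99.6% in WT, on 657 to 973 reads. In these 3 genes both KO libraries lay below both WT libraries, and the proximal APS would not have been strong without the KO libraries, which held 41 of 52, 59 of 70 and 40 of 51 of its reads. Calm3, 1 of the calmodulin genes, went the other way, with 73.9% and 82.0% in KO and 59.5% and 57.3% in WT. So did Kcng2, a modulatory potassium channel subunit, with 78.8% and 81.4% in KO and 13.0% and 59.0% in WT, and KO libraries supplied 61 of the 87 reads of its distal APS. Both APSs of Kcng2 lie in introns. In St6galnac6, Triobp and Ankrd13c both KO libraries were at 100% and WT libraries at 86.8 to 96.0%. The gap rests on 2 to 5 proximal reads in each WT library. With 15 to 45 reads in each KO library, a proximal share of up to 6.67 to 20% (3 reads) is allowed there. Most of these WT values are thus not set apart from the KO ones by the counts.

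In AMPKα1 the 12 members with the lowest p, 6 in each direction, had an edgeR adjusted p of 1. In 11 of them an APS with reads in both WT libraries had none in either KO library. In 8 of these 11 that APS held under 50 reads outside the AMPKα1 WT libraries. Without these libraries the gene would not have been a member. They held 61 of 62 reads of that APS in Atpif1, 49 of 53 in Dcun1d5 and 123 of 146 in Asb4. In Slc38a4 and Gigyf1 they held 20 of 64 and 31 of 66, and the AMPKα2 libraries held the other 44 and 35. In Znhit1, Eif2a and Ctbp1 the APS without KO reads had 63, 54 and 52 reads in the AMPKα2 libraries alone. Asb4, a SOCS box protein that binds a ubiquitin ligase, showed the widest gap. Its distal APS had 0 of 269 and 0 of 198 reads in KO, which allows a share of up to 1.12% and 1.52% (3 reads), and 37 of 97 (38.1%) and 86 of 290 (29.7%) in WT. In AMPKα2 its share was 16.7 to 31.8% in the 4 libraries, on 6 to 41 reads. Prdx2, a peroxiredoxin, had 0 of 1397 and 0 of 1072 distal reads in KO, allowing up to 0.215% and 0.280%, and 5.46% and 2.71% in WT. Tpd52l2, Gigyf1 (a partner of the adaptor Grb10) and Dcun1d5 (a cullin neddylation factor) likewise had a distal share of 0 in KO and 1.12 to 10.6% in WT.

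**Figure D5:**
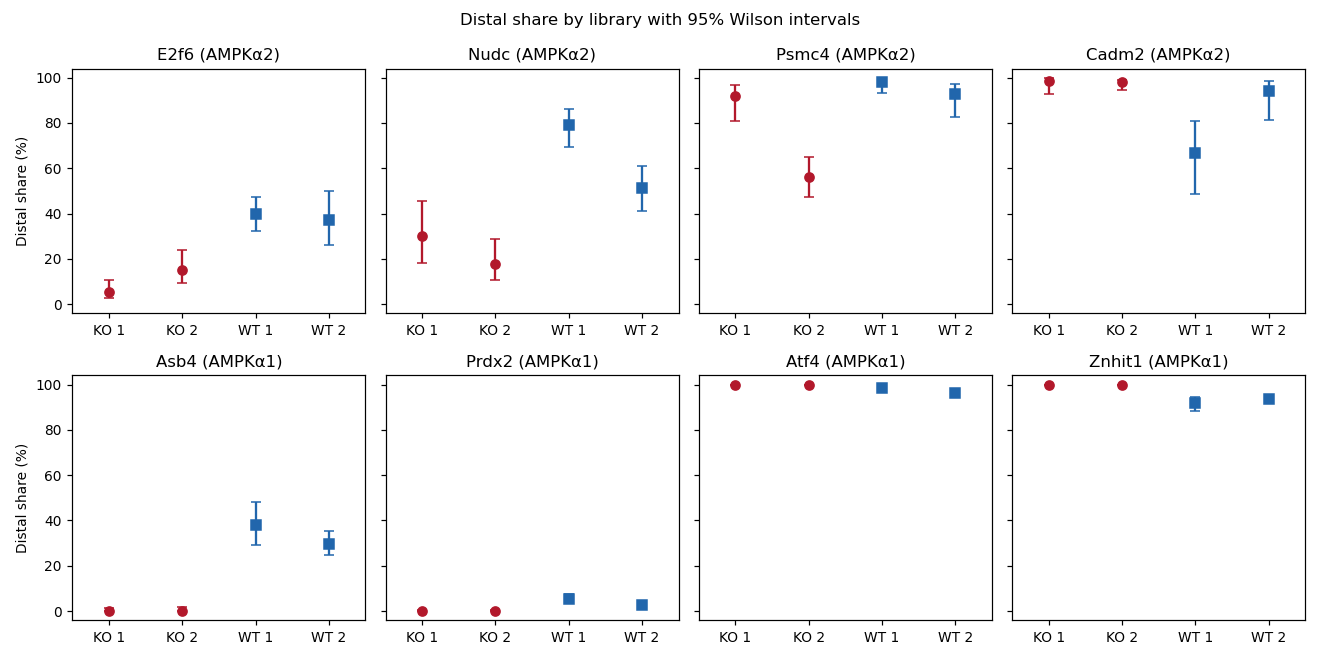
Distal share (y axis, %) in each KO library (circles) and WT library (squares) of the model named in the panel title, with bars for the 95% Wilson interval of each library. The upper panels show the 4 members called in AMPKα2 and the lower panels 4 of the members with the lowest p in AMPKα1, none of them called, where both KO libraries lie at 0 or 100%.

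In the other direction, Znhit1 (a subunit of a chromatin remodeller), Eif2a (a translation initiation factor), Atf4 (the transcription factor of the integrated stress response), Atpif1 (the inhibitor of ATP synthase), Slc38a4 (an amino acid transporter) and Ctbp1 (a corepressor) had a distal share of 100% in both KO libraries and 88.0 to 99.1% in WT. In Atf4 the proximal APS had 0 of 1341 and 0 of 1286 reads in KO and 15 of 918 and 35 of 971 in WT. In Klf2, a transcription factor, the proximal APS was at 0 in WT instead, and the distal share was 95.5% and 96.4% in KO, which held 120 of the 121 reads of that APS. For comparison, 27.2 to 33.8% of members with at least 100 reads had an APS at 0 in a single AMPKα1 KO library, as given above.

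Counted without a model, the groups failed to overlap in a share of members close to that of all genes tested. In AMPKα1 both KO libraries lay above both WT libraries in 193 of 1354 members (14.3%, against 12.5% of all genes tested) and below them in 248 (18.3%, against 22.3%). In AMPKα2 the counts were 131 of 921 (14.2%, against 14.7%) and 186 (20.2%, against 21.8%). The median difference between KO and WT was -2.55 points in AMPKα1 members (-2.50 over all genes tested) and -0.45 in AMPKα2 members (-0.54). Its quartiles were -17.6 and 9.64 points in AMPKα1 and -5.44 and 3.57 in AMPKα2. At an unadjusted edgeR p below 0.05 there were 48 members (3.55%) in AMPKα1 and 75 (8.14%) in AMPKα2, against 3.64% and 7.25% of all genes tested. Over the members tested that were selected through the other model, KO lay above WT in 26 of 163 (16%) and below in 23 (14.1%) in AMPKα1, and in 92 of 557 (16.5%) and 96 (17.2%) in AMPKα2.

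As single APSs, few of the members' sites were called. Member APSs hold at least 50 reads over the 8 libraries, whereas the APSs tested as a whole need only 16 in the model. The shares and medians set side by side below are thus at unlike depth. edgeR called 0 of 4014 member APSs in AMPKα1, where 2 of 44024 were called in all (0.00454%). There 237 member APSs (5.90%) had an unadjusted p below 0.05, against 3.07% of all APSs tested, and DESeq2 called 37 (1.37%, against 1.37% of all). In AMPKα2 it called 1 of 2463, against 13 of 23218 (0.056%). An unadjusted p below 0.05 was found for 4.22% of member APSs, against 7.60% of all, and DESeq2 called 8 of 532 member APSs, against 96 of 4441 (2.16%) of all. The APS called by edgeR was the distal one of a copy of Ptp4a2, a tyrosine phosphatase gene, on a scaffold that is not a chromosome of the assembly. It held 67 and 151 reads in AMPKα2 KO and 14 and 8 in WT (log2 fold change 3.55, SE 0.44, edgeR adjusted p = 0.0785). The proximal APS of that copy was read 44 and 115 times in KO, against 22 and 19 times in WT. The copy of Ptp4a2 on chromosome 4, which has 3 strong APSs and so is no member, moved the other way at position 129849979, where KO libraries had 0 and 2 reads against 164 and 142 in WT. At position 129848402 the counts were 71 and 178 in KO, against 503 and 305 in WT. Over the member APSs tested in AMPKα2 the median log2 fold change was -0.19, against 0.01 over all APSs tested. The 2 Ptp4a2 sequences carry the same gene, so how reads were divided between them bears on each value, and this was not tested.

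The KO effect on the distal share was also compared between the models. edgeR called 0 of the 2471 genes tested (0%), of which 789 were members, for an interaction of KO and model. An unadjusted p below 0.05 was found for 57 members (7.22%, against 6.52% of all genes tested), and DESeq2 called 36 (4.56%, against 3.84%). The lowest edgeR adjusted p of a member was 0.334. The level itself differed between the models irrespective of genotype, in members selected partly through the libraries compared. Of 789 members with at least 10 reads in each of the 8 libraries, the distal share was higher in all 4 AMPKα1 libraries than in all 4 AMPKα2 libraries in 190 (24.1%) and lower in 66 (8.37%). Over all 2471 genes with 2 or more strong APSs and such reads the shares were close to these, 22.4% higher and 7.77% lower. For a proximal APS in an internal exon these were 59 of 120 (49.2%) and 6. In 80 of the 789 members the distal share was 100% in each AMPKα1 library, and in 12 in each AMPKα2 library. The models differ in age, in markers and perhaps in strain, which cannot be told apart from the targeted subunit here.

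By role, 1 member of the lists of muscle genes passed the test. Of 68 sarcomere genes, 12 were members, and none of 7 tested in AMPKα1 and 11 tested in AMPKα2 passed. In AMPKα2 both KO libraries lay below both WT libraries in 6 of the 11, above in 0, with a median difference of -1.54 points, against 21.8% below and 14.7% above over all genes tested. In AMPKα1 it was 0 of 7 below and 2 above. The list was chosen with results known, and 3 of its 12 members are slow fibre markers, whose summed level was higher in KO in both models. Tcap, which caps titin at the Z disc, held the most reads of any member, 97063. Its share was 100% in the 4 AMPKα1 libraries, 96.6% and 98.8% in AMPKα2 KO and 99.2% and 98.9% in WT. Fhl3, a LIM domain protein, lay between 98.9 and 100% in the 8 libraries.

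Of 40 calcium handling genes 9 were members, and none of 7 and 9 tested passed in AMPKα1 and AMPKα2. Jsrp1, a protein of the junctional membrane of the triad, was at 100% in AMPKα1 and 97.0 to 98.3% in AMPKα2. Casq2, the cardiac and slow muscle calsequestrin, used both ends, with 78.9% and 83.4% in AMPKα1 KO and 65.0% and 65.2% in WT. In AMPKα2 it had 32.4% and 45.9% in KO and 47.4% and 50% in WT. Its KO and WT libraries did not overlap in either model, in opposite directions, and edgeR's adjusted p was 1 and 0.912. The AMPKα2 shares rest on 28 to 38 reads per library. The Wilson intervals of KO 2 (31.0 to 61.6%) and WT 1 (32.5 to 62.7%) nearly coincide there, so the order in AMPKα2 lies within counting error. Slow fibre markers were higher in KO in both models, and their part in these shares was not tested.

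Of 49 glycolysis and glycogen genes 8 were members (7 and 6 tested, none called). Ldha, the muscle form of lactate dehydrogenase, was at 100% in AMPKα1, and in AMPKα2 at 97.0% and 99.2% in KO against 99.5% in both WT libraries. Its KO libraries lay below its WT libraries (log2 odds -1.77, SE 0.58, edgeR adjusted p = 0.295), and its proximal APS held 54 of its 88 reads in AMPKα2 KO. Gapdh was the reverse, read almost entirely at its proximal APS, with a distal share of 0.0133 to 0.821% in the 8 libraries. Of 130 mitochondrial energy genes 29 were members, none of 21 and 28 tested passed, and the median difference was 0.72 and -0.35 points. Ndufa5, of complex I, lay between 98.2 and 100% and Atp5e, the epsilon subunit of ATP synthase, between 93.9 and 100%.

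The list of AMPK subunits, kinases and targets held 4 members among 37 genes, and none of 4 and 2 tested passed. Hdac4, a class IIa deacetylase, had distal shares of 65% and 40% in AMPKα2 KO and 18.9% and 35.1% in WT (edgeR adjusted p = 0.594), and of 4.27%, 5.41%, 12.2% and 12.4% in AMPKα1. In AMPKα2 its KO libraries were the higher pair, on 37 to 60 reads per library, and in AMPKα1 the lower, on 49 to 259. Eif4ebp1, a repressor of translation initiation, had 0 to 15.4% in the 8 libraries. Cleavage and polyadenylation factors gave 4 members of 45 genes, none called of 4 and 1 tested. Pabpn1, the nuclear poly(A)-binding protein, had 38.5% and 21.2% in AMPKα1 KO and 9.76% and 20.3% in WT, and 0 to 3.01% in AMPKα2. Cpsf2, a subunit of the cleavage and polyadenylation specificity factor, had 0 of 342 and 0 of 135 distal reads in AMPKα1 KO, which allows up to 0.877% and 2.22%, and 13 of 103 and 30 of 162 in WT. The AMPKα1 WT libraries supplied 43 of the 51 reads that made this APS strong.

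Protein turnover genes gave 21 members of 77 genes, and Psmc4 was the 1 called, among 15 and 19 tested. Psmd8, another subunit of the regulatory particle, had 94.8% and 91.2% in AMPKα1 KO and 78.9% and 86.5% in WT. In AMPKα2 it had 79.1% and 72.2% in KO and 63.3% and 67.1% in WT. Both KO libraries were above both WT libraries in each model, by 10.3 and 10.5 points, and edgeR's adjusted p was 1 and 0.819. Psmb1, of the 20S core, was read mainly at its proximal APS, with 0 to 17.6% distal.

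Translation genes gave 13 members of 53 (7 and 11 tested), transcription and clock genes 7 of 50 (4 and 4), and dystrophin complex, membrane and matrix genes 4 of 51 (2 and 2), with none called. Eef1g, of elongation factor 1, lay between 92.9 and 100% and the ribosomal protein gene Rpl8 between 91.6 and 100%. Rxra, a nuclear receptor, was at 100% in AMPKα1, and in AMPKα2 at 84.0% and 84.6% in KO against 98.8% and 90.6% in WT (edgeR adjusted p = 0.244). Nr1d2, a repressor of the circadian clock, had 76.2% and 88.2% in AMPKα2 KO and 95% and 91.7% in WT, on 12 to 40 reads. Lamb2, a laminin of the synaptic basement membrane, was at 100% in AMPKα1 and 71.1% and 74.6% in AMPKα2 KO against 81.1% and 80.2% in WT. In these 3 genes the KO libraries lay below the WT libraries in AMPKα2, and none passed. The proximal APS of each of the 3 would have been under 50 reads without the AMPKα2 KO libraries. That of Nr1d2 held 56 reads, 9 in AMPKα2 KO and 40 in AMPKα1 KO, and would also have fallen short without the latter. Itgb1bp2, the muscle protein melusin, had distal reads in 1 library alone, 51 of 248 in AMPKα1 KO 1.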

How the data were processed

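Gastrocnemius RNA of 8 mice was sequenced by WTTS-seq. The authors trimmed the reads, kept those of at least 16 bases, mapped them to the mouse genome (GRCm38.p5 per the labels), clustered read ends into APSs and assigned them to genes. The deposited values are raw counts of reads per APS and library, not normalized, and list APSs that sum to 16 or more. From these counts the distal reads and the other reads at strong APSs were summed per gene and library. edgeR 4.0.16 in R 4.3.3 fitted both sums with a term per library, a term for the distal side and its interaction with KO (quasi-likelihood test), within each model and over genes with at least 10 reads in each of the 4 libraries. A log2 odds is that interaction term. Single APSs that summed to 16 or more reads in a model were tested with TMM normalization. p-values were Benjamini-Hochberg adjusted over all genes or APSs tested, and an adjusted p under 0.1 was called. DESeq2 1.42.0, limma 3.58.1, other minimums, other sets of libraries and a replicate block were alternatives. Genes were placed on GENCODE M21 by symbol, chromosome and strand. Python 3.11.15 with pandas 2.3.3 and scipy 1.17.1 made the tables.

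The fits were tested on simulated data before use. A count of 0 calls does not show that shares were equal.

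Members and lists were chosen with earlier results of these data known. Named members are those with the lowest p (6 per model and direction), a called APS, the most reads (4, and 2 per role list), the shortest or longest distance, and the nearest to the threshold. Of these, 1 gene and 1 sequence were left out. KO and WT libraries share replicate numbers but come from different mice. Deviations of same-numbered libraries from their group means correlated at 0.025 in AMPKα1 and 0.040 in AMPKα2 across genes.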

Additional observations from a re-analysis of the deposited data

How the results depend on the processing

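The count of members with a called distal share depended on the setting. In AMPKα1 it was 0 at a coverage minimum of 5, 20 or none, with strong APSs at 30 or 100 reads, with all APSs in the denominator, with limma, with diffSpliceDGE and without any single library, but 21 with DESeq2 (7 higher), 1 with all 8 libraries fitted together and 8 with a replicate block. In AMPKα2 the 4 calls became 0 with DESeq2, limma at either pseudocount, diffSpliceDGE, all APSs in the denominator or all 8 libraries, 7 with strong APSs at 30 reads, 1 at 100 reads, 2 with the replicate block, and 0 to 23 when 1 library was left out. E2f6 was called in 6 of 12 alternatives that kept the libraries, Nudc in 5 of 12, and Psmc4 and Cadm2 in 4 of 11 each, and the direction was the same in each alternative. The interaction gave 36 members with DESeq2 in place of 0, and 0 with a replicate block. For single APSs of members in AMPKα1, DESeq2 called 37, library totals 4, all 8 libraries 262, and leaving out a library 0 to 13, in place of 0. In AMPKα2, an adjusted p of 0.05 gave 0, DESeq2 8, library totals 2, no filter 22, all 8 libraries 0, the replicate block 21, and leaving out a library 0 to 3, in place of 1. The cause of these differences was not tested. Over members with 50 reads at both APSs in the other model there were 0 calls in AMPKα2. None of the 4 called members is in that set, so it cannot check their calls. The difference in median distal share turned to 3.27 points in AMPKα1 and 1.04 in AMPKα2 over those members. In the other alternatives it ranged from -8.35 to -1.06 points in AMPKα1 and from -3.41 to -0.88 in AMPKα2. KO and WT stopped overlapping in 3 of 7 alternatives in AMPKα2 and 1 of 7 in AMPKα1. The sets with 50 reads at both APSs, within the model (-8.35 and -1.48) or in the other model, were chosen after seeing the data. The replicate numbers mark no shared animal, litter or day in the labels, and the correlations of the deviations were near 0. With 2 mice per group, the biological coefficient of variation between libraries was 156% in AMPKα1 and 38.8% in AMPKα2, which limits the changes that can be detected, most of all in AMPKα1.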
